A study of Mus musculus with 16 samples.

Results

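The genes described here are 38 members of the unfolded protein response and the integrated stress response, out of 18194 genes with a named probe set on the array. They were chosen by gene symbol, with the brightest probe set over the 12 muscle arrays standing for each gene. All 38 had at least 1 probe set, and 90 probe sets carried their symbols in all. By role they divide into 17 chaperones and folding enzymes of the endoplasmic reticulum (ER), 7 factors of ER-associated degradation, 8 genes of the Atf4 arm, 4 sensors and their transcription factors, and 2 parts of the translocon through which new proteins enter the ER.

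The study measured gastrocnemius muscle of male mice aged 2 months on oligonucleotide arrays, with 2 arrays per group. Galgt2, whose gene symbol is B4galnt2, encodes a glycosyltransferase that in adult muscle is normally confined to the nerve-muscle junction, and the study asked what its overexpression does to muscle with and without dystrophin. The first set held wild-type mice (C57BL/6J), dystrophin-deficient mdx mice (C57BL/10J), Galgt2 transgenic mice (C57BL/6J) and mice that carried the transgene and lacked dystrophin (transgenic mdx, C57BL/10J x C57BL/6J). In the second set, gastrocnemius of mdx mice (C57BL/10J) had received an adeno-associated virus (AAV) carrying Galgt2, and the muscle of the other leg received phosphate-buffered saline (PBS). The third set had 1 array each of C2C12 myoblasts, C2C12 myotubes, and myoblasts and myotubes of a C2C12 line stably transfected with Galgt2 (C2C12-Galgt2). C2C12 is an established mouse muscle cell line. Substrain differed along with genotype in the first set, so the 2 cannot be told apart in mdx against wild type. Transgenic mdx muscle also differed in substrain from mdx, from wild-type and from transgenic muscle, so that in each comparison of transgenic mdx muscle, the interaction included, substrain cannot be told apart from the transgene or the lack of dystrophin. The labels do not name the promoter of the transgene, and do not say which AAV and PBS muscles came from the same animal.

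The ER folds secreted and membrane proteins, and chaperones such as Hspa5 (BiP) hold them until they are folded. When unfolded proteins build up, the membrane sensors Ern1 (IRE1), Eif2ak3 (PERK) and Atf6 are activated; Ern1 splices the mRNA of Xbp1, Atf6 is cut to release a transcription factor, and Eif2ak3 phosphorylates the initiation factor eIF2. Xbp1 and Atf6 drive genes of chaperones and of ER-associated degradation, which returns misfolded proteins to the cytosol for breakdown. Phosphorylated eIF2 slows translation in general but favours that of Atf4, which turns on genes of amino acid supply and, when stress lasts, Ddit3 (CHOP) and Trib3; other kinases that sense amino acid shortage or double-stranded RNA reach Atf4 by the same route. Splicing of Xbp1, cutting of Atf6 and translation of Atf4 are not seen by the levels given here, which are of total mRNA.

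The promoters of these genes carry short elements for those factors, and the sequences are shown because several of the genes described below, Derl3, Creld2, Hspa5 and Trib3 among them, hold one or more. Promoters here are RefSeq sequences of mouse build GRCm38.p6, from 250 bases before to 50 bases after each annotated start site, and 33 of the 38 members matched by symbol, all but Hyou1, Hspa13, Manf, Derl1 and Atf6. The ER stress element (ERSE), which is CCAAT, then 9 bases of any kind, then CCACG, on either strand, stood in the promoters of 9 of these 33 members (27.273%), against 37 of 27025 genes with a promoter (0.137%). By role it was found in 7 of 14 chaperones and folding enzymes, in 2 of 6 degradation factors and in 0 of 8 genes of the Atf4 arm. The matches follow, read 5′ to 3′ on the strand of the match, with the fixed bases of the element in capitals:

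Calr: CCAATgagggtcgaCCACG
Canx: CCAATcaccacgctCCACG
Creld2: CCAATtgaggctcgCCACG
Derl3: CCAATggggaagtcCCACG
Dnajc3: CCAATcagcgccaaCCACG
Hsp90b1, upstream copy: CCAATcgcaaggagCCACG
Hsp90b1, downstream copy: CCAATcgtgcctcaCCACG
Hspa5: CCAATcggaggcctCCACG
Pdia6: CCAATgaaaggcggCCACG
Syvn1: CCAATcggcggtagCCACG

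A shorter relative, ERSE-II (ATTGG, 1 base of any kind, then CCACG, on either strand), stood in 2 members, Dnajb11 and Herpud1, and in 0.044% of all genes. The core of the Xbp1 and Atf6 element known as the UPRE, TGACGTG, stood in 1 member, Hspa5, and in 2.224% of genes. The pentamer CCACG, which is also part of ERSE and ERSE-II, stood in 25 members (75.758%) and in 35.482% of genes. The element of the Atf4 arm, known as CARE, was searched as TGATGNAAT, which stood in 0 members and 1.084% of genes, and then, after that count was seen, as the shorter TGATGNAA, which stood in 5 members and 4.511% of genes. Those 5 were 4 of the 8 genes of the Atf4 arm and the degradation factor Herpud1, and none of the 14 chaperones. Their matches, in the same form, are:

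Asns: TGATGaAA
Atf3: TGATGcAA
Chac1: TGATGcAA
Herpud1: TGATGcAA
Trib3: TGATGtAA

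Whole promoters of 3 ER genes are shown with their elements in capitals. They were picked because these genes hold an element and rose with the transgene in both normal and mdx muscle, as described below. The promoter of Derl3 lies at chr10:75893148-75893447 (plus strand), Creld2 at chr15:88819396-88819695 (plus strand) and Hspa5 at chr2:34771840-34772139 (plus strand). In Derl3 and Creld2 the capitals are the ERSE read from its other strand, and in Hspa5 they are the UPRE core followed by the ERSE:

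Derl3: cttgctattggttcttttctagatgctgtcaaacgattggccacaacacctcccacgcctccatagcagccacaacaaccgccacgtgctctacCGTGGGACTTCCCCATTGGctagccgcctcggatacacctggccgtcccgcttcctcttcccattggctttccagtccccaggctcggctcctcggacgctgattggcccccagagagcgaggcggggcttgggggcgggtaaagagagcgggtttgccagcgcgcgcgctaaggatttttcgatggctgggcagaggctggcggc
Creld2: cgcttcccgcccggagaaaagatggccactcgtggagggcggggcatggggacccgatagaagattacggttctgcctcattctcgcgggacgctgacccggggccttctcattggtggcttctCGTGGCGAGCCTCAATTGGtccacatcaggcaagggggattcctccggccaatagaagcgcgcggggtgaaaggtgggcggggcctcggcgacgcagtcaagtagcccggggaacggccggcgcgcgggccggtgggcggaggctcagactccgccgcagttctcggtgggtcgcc
Hspa5: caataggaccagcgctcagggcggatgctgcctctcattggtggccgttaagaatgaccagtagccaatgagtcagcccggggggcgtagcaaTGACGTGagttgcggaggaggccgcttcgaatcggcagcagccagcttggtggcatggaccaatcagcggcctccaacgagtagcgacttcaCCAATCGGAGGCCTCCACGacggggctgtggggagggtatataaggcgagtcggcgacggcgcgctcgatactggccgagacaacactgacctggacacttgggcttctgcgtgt

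Herpud1, at chr8:94386179-94386478 (plus strand), holds the short CARE form and ERSE-II in a single window, and Trib3, at chr2:152344011-152344310 (minus strand), holds only the short CARE form, just after its start site. Capitals mark those elements:

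Herpud1: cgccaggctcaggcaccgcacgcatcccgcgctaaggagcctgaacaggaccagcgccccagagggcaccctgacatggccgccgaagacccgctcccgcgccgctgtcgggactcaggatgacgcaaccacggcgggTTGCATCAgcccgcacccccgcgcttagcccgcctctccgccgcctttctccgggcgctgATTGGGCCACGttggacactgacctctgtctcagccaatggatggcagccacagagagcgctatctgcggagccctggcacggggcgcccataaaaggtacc
Trib3: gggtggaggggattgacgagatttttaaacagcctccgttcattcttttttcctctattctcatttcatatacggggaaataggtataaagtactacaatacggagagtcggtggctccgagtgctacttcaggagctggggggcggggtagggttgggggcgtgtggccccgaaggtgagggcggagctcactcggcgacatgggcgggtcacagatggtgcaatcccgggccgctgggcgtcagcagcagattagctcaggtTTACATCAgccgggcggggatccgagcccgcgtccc

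Of the genes that stood highest below, Sdf2l1 and Ddit3 had none of ERSE, ERSE-II, the UPRE core and the short CARE form in this window. Several holders were called neither in transgenic against wild type nor in transgenic mdx against mdx muscle. These were Calr, Canx, Dnajc3 and Pdia6 with ERSE, Dnajb11 with ERSE-II, and Asns, Atf3 and Chac1 with the short CARE form. Chac1 was lower on the transgenic arrays. A match is a description of the letters and not a bound site. The members were chosen as genes of these responses and the elements are those known for such genes. A higher share among the members is therefore no independent result.

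**Figure D1:**
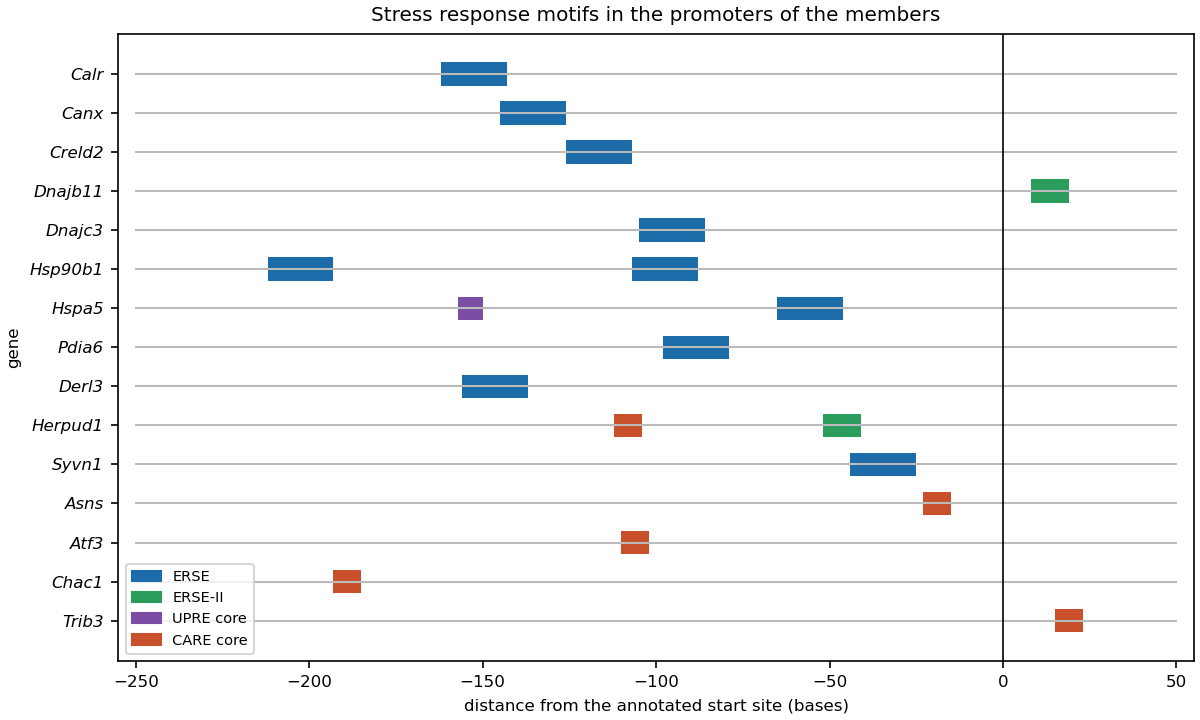
Positions of 4 elements in the promoters of the 15 members that hold any of them; the horizontal axis is the distance from the annotated start site in bases and each bar is 1 match. ERSE matches (blue) lie before the start site in chaperone and degradation genes, and the short CARE form (orange) lies in Asns, Atf3, Chac1, Trib3 and Herpud1.

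Levels are log2 of the deposited intensities, on which a difference of 1 is 2-fold. Array medians ran from 57.7 to 63.9 intensity units in the first set and from 25.3 to 25.7 in the second, so levels were compared within a set only. B4galnt2 measured 13.17 to 13.34 in the 4 transgenic arrays, 4.61 and 4.94 in wild type, and 3.86 and 7.78 in mdx, so that mdx replicate 2 stood above the other arrays without transgene. Transgenic mdx replicate 2 had the highest ratio of 3′ to 5′ Gapdh signal of the muscle arrays, 1.23 on the log2 scale against 0.18 to 0.48 on the other 11, a sign of more degraded or shorter RNA; results were also computed without these 2 arrays. Dmd, the dystrophin gene, fell by 2.82 ± 0.20 (SE) in mdx against wild type (adjusted p = 0.000475), and transgenic mdx lay between them at 9.86 and 9.87. Differences below carry a standard error (SE) from limma fitted over 18194 genes and all 12 muscle arrays, with p adjusted over all genes by Benjamini-Hochberg, and "rose" or "fell" means an adjusted p under 0.05. In whole muscle, fewer cells of a type and less RNA per cell cannot be told apart.

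In wild-type muscle most of the members were well expressed. P4hb, a protein disulfide isomerase, Calr, a calcium-binding chaperone, and Atf4 stood at or above the 95th percentile of genes on both arrays, with Calr at the 96.9 and 96.7 percentile and Atf4 at 95.3 and 95.1. Derl3, at the 22.7 and 18.5 percentile, and Sdf2l1, at 33.6 and 39.1, stood among the dim genes. Over the 12 muscle arrays 29 of the 38 members were above the median gene on every array. The other 9 (Pdia4, Sdf2l1, Derl3, Edem1, Syvn1, Trib3, Asns, Ppp1r15a and Sesn2) were above it on 1 to 11 arrays.

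**Figure D2:**
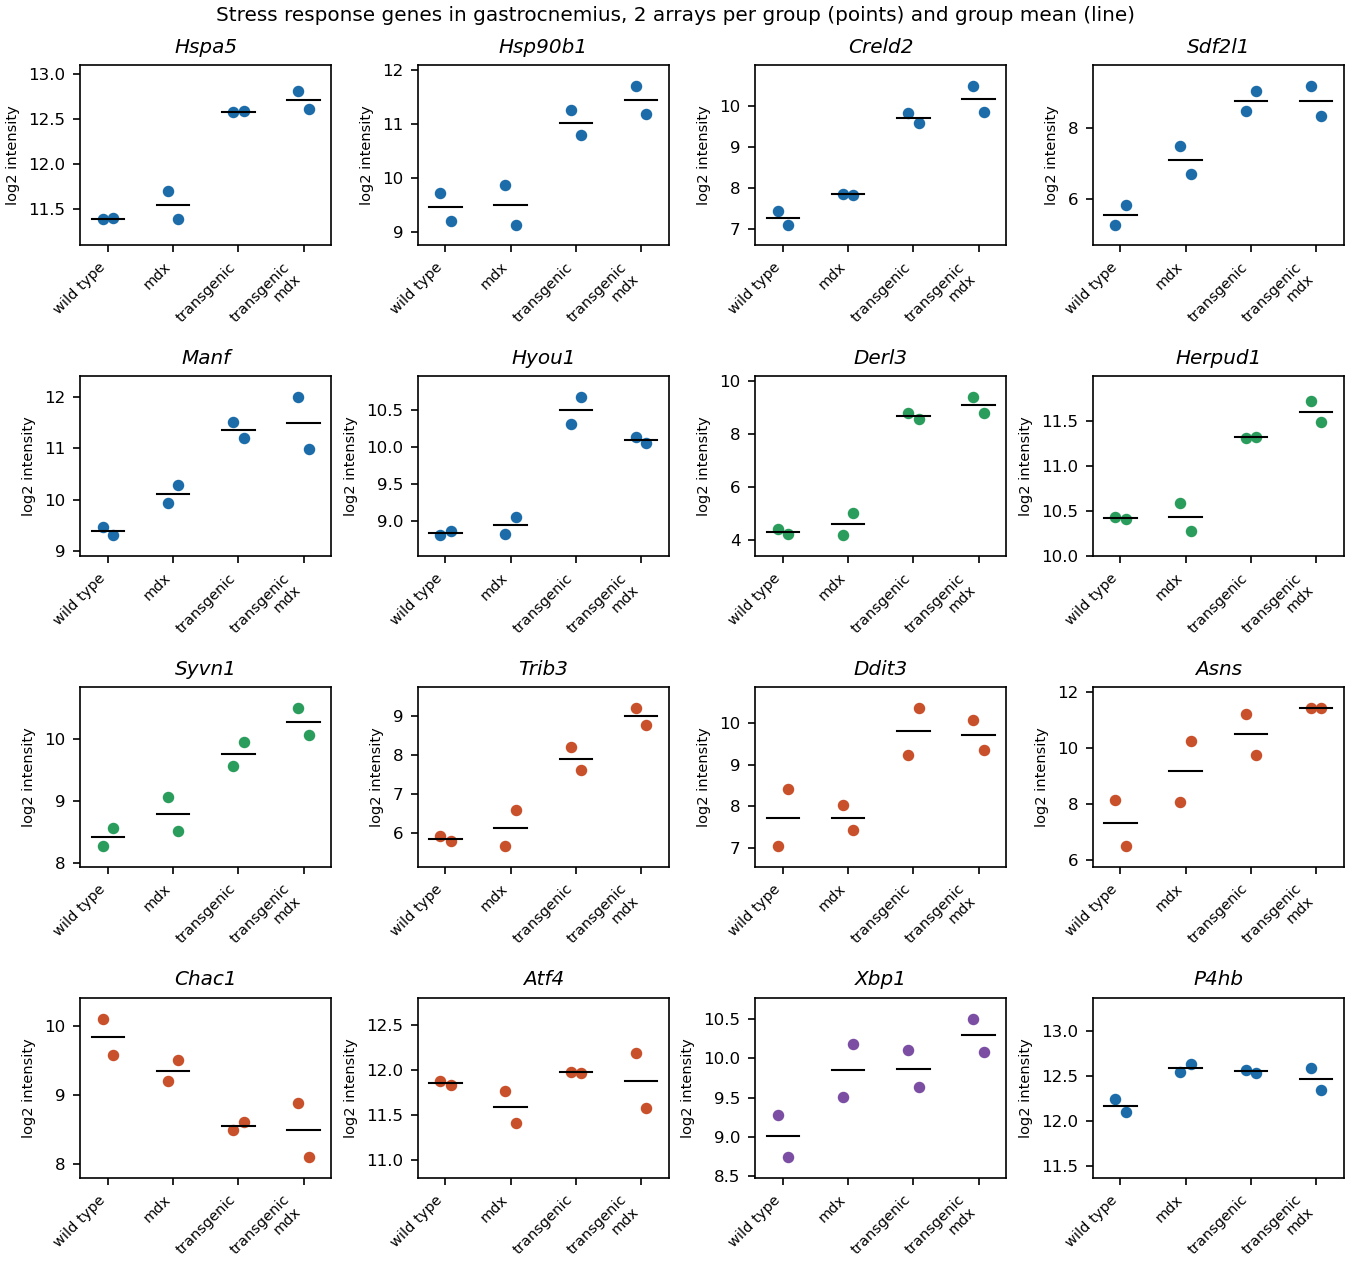
Log2 intensity (vertical axes, each panel on its own scale of at least 2 units) of 16 members in the 4 groups of the first set; points are single arrays and lines are means of 2 arrays. Derl3 sits between 4.16 and 5.01 without the transgene and between 8.58 and 9.40 with it, Chac1 runs the other way, and Atf4 and P4hb show little difference.

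In muscle with normal dystrophin the Galgt2 transgene came with higher mRNA of ER chaperones and of Derl3, and with higher Ddit3 and Trib3. In transgenic against wild-type muscle 9 of 38 members rose and 0 fell, beside 2.12% of all genes called higher and 1.03% lower. Both transgenic arrays exceeded both wild-type arrays for 32 members (20.5% of all genes), and both were lower for 2 (27.1%), Chac1 and Dnajc10. The median difference of the members was 0.71, against -0.05 for all genes.

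Derl3, a derlin of ER-associated degradation, showed the largest measured difference of any member. Its log2 level was 4.40 and 4.21 on the wild-type arrays, 4.16 and 5.01 on the mdx arrays, 8.80 and 8.58 on the transgenic arrays and 9.40 and 8.81 on the transgenic mdx arrays. The 4 transgenic arrays were all above the 4 others, with no array in between. The difference to wild type was 4.38 ± 0.31 (adjusted p = 7.79e-05), and 3.58 ± 0.22 with 16 added to each intensity. The level without the transgene was dim and was not tested against background, so no fold is given. Syvn1, the ubiquitin ligase HRD1 of the same pathway, measured 8.28 and 8.57 in wild type and 9.58 and 9.95 in transgenic muscle, a difference of 1.34 ± 0.34 that missed the threshold (adjusted p = 0.0732). Herpud1, a membrane protein that binds Syvn1, measured 10.43 and 10.42 in wild type and 11.31 and 11.32 in transgenic muscle (0.89 ± 0.22, adjusted p = 0.0579). So 1 of 7 degradation factors rose, and both transgenic arrays were the higher for 6 of 7, all but Derl1.

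Among the 17 chaperones and folding enzymes 6 rose, and both transgenic arrays were the higher for 15. Creld2, a secreted ER protein with disulfide isomerase activity, measured 7.43 and 7.10 on the wild-type arrays, 7.85 and 7.83 on the mdx arrays, 9.83 and 9.58 on the transgenic arrays and 10.48 and 9.84 on the transgenic mdx arrays. Its 4 transgenic arrays lay at least 1.73 above the highest of the others, and the difference to wild type was 2.44 ± 0.30 (5.44-fold, adjusted p = 0.00211). Sdf2l1, a partner of Hspa5 in the ER, measured 5.28 and 5.85 on the wild-type arrays, 7.48 and 6.71 on the mdx arrays, 8.48 and 9.04 on the transgenic arrays and 9.18 and 8.35 on the transgenic mdx arrays, so that mdx stood between. It rose over wild type by 3.20 ± 0.49 (adjusted p = 0.00664), from a level that was dim as well. Manf, a secreted protein released when ER calcium falls, measured 9.47 and 9.31 in wild type and 11.51 and 11.20 in transgenic muscle (1.97 ± 0.33, adjusted p = 0.00994). Its mdx arrays, at 9.95 and 10.29, lay between these groups.

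Hspa5, Hsp90b1 and Hyou1 each rose by under 2 on the log2 scale. Hspa5, which binds unfolded chains and keeps the sensors inactive, measured 11.39 and 11.41 on the wild-type arrays, 11.70 and 11.39 on the mdx arrays, 12.58 and 12.59 on the transgenic arrays and 12.81 and 12.61 on the transgenic mdx arrays. That is 2.27-fold over wild type (1.19 ± 0.22, adjusted p = 0.016), with the 4 transgenic arrays close to each other. Hsp90b1 (GRP94), the ER form of Hsp90, measured 9.73 and 9.21 on the wild-type arrays, 9.88 and 9.14 on the mdx arrays, 11.25 and 10.80 on the transgenic arrays and 11.70 and 11.18 on the transgenic mdx arrays. It rose by 1.55 ± 0.32 (adjusted p = 0.0264), and again the arrays split by the transgene alone. Hyou1 (GRP170), an exchange factor for Hspa5, measured 8.81 and 8.86 on the wild-type arrays, 8.82 and 9.06 on the mdx arrays, 10.31 and 10.67 on the transgenic arrays and 10.13 and 10.06 on the transgenic mdx arrays. The rise over wild type was 1.66 ± 0.28 (adjusted p = 0.0105). The lectin chaperones Calr (0.48 ± 0.20) and Canx (0.49 ± 0.19) and the isomerase P4hb (0.38 ± 0.19) differed by under 0.5 and were not called.

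The Atf4 arm divided. Ddit3, a pro-apoptotic transcription factor, measured 7.05 and 8.41 on the wild-type arrays, 8.03 and 7.43 on the mdx arrays, 9.23 and 10.36 on the transgenic arrays and 10.07 and 9.35 on the transgenic mdx arrays. Its groups did not overlap, but its replicates lay up to 1.37 apart, and the rise of 2.07 ± 0.48 only just passed (adjusted p = 0.0467). Trib3, a pseudokinase that Ddit3 and Atf4 induce, measured 5.91 and 5.79 on the wild-type arrays, 5.65 and 6.59 on the mdx arrays, 8.20 and 7.59 on the transgenic arrays and 9.20 and 8.76 on the transgenic mdx arrays. It rose by 2.05 ± 0.31 (adjusted p = 0.0067). Its wild-type level was dim, at the 40.1 and 38.5 percentile of genes, so no fold is given. Atf4 itself measured 11.87 and 11.83 in wild type and 11.98 and 11.97 in transgenic muscle, a difference of 0.12 ± 0.23. Asns, asparagine synthetase, measured 8.11 and 6.47 on the wild-type arrays, 8.07 and 10.24 on the mdx arrays, 11.21 and 9.73 on the transgenic arrays and 11.42 and 11.40 on the transgenic mdx arrays. With replicates up to 2.17 apart, its difference of 3.18 ± 0.76 was not called (adjusted p = 0.0548).

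Chac1 went the other way, without a call. This gene of the Atf4 arm encodes an enzyme that breaks down glutathione, and it measured 10.10 and 9.58 on the wild-type arrays, 9.19 and 9.50 on the mdx arrays, 8.49 and 8.61 on the transgenic arrays and 8.89 and 8.10 on the transgenic mdx arrays. The 4 transgenic arrays were all below the 4 others, as for no other member and for 5.31% of all genes. The differences, -1.29 ± 0.37 between transgenic and wild type (adjusted p = 0.104) and -0.85 ± 0.37 between transgenic mdx and mdx (adjusted p = 0.214), did not pass. Atf3, a stress-induced transcription factor, differed by 0.98 ± 0.46, and Ppp1r15a (GADD34), which reverses eIF2 phosphorylation, and Sesn2, a stress-induced inhibitor of growth signalling, by 0.31 ± 0.29 and 0.27 ± 0.26. None of these 3 was called.

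The 4 sensors and transcription factors were all higher on both transgenic arrays than on both wild-type arrays, by 0.30 ± 0.21 for Ern1, 0.40 ± 0.26 for Eif2ak3, 0.84 ± 0.29 for Atf6 and 0.86 ± 0.30 for Xbp1, and none passed the test. The translocon genes Sec61b (-0.27 ± 0.25) and Ssr1 (0.61 ± 0.24) were not called either. The count of 9 depended on single arrays: leaving out wild-type replicate 1 gave 3, wild-type replicate 2 gave 4, and transgenic replicate 2 gave 5. Creld2 and Derl3 passed in all 21 alternative settings, and without mdx replicate 2 and transgenic mdx replicate 2 the count was again 9, with Asns in and Ddit3 out.

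**Figure D3:**
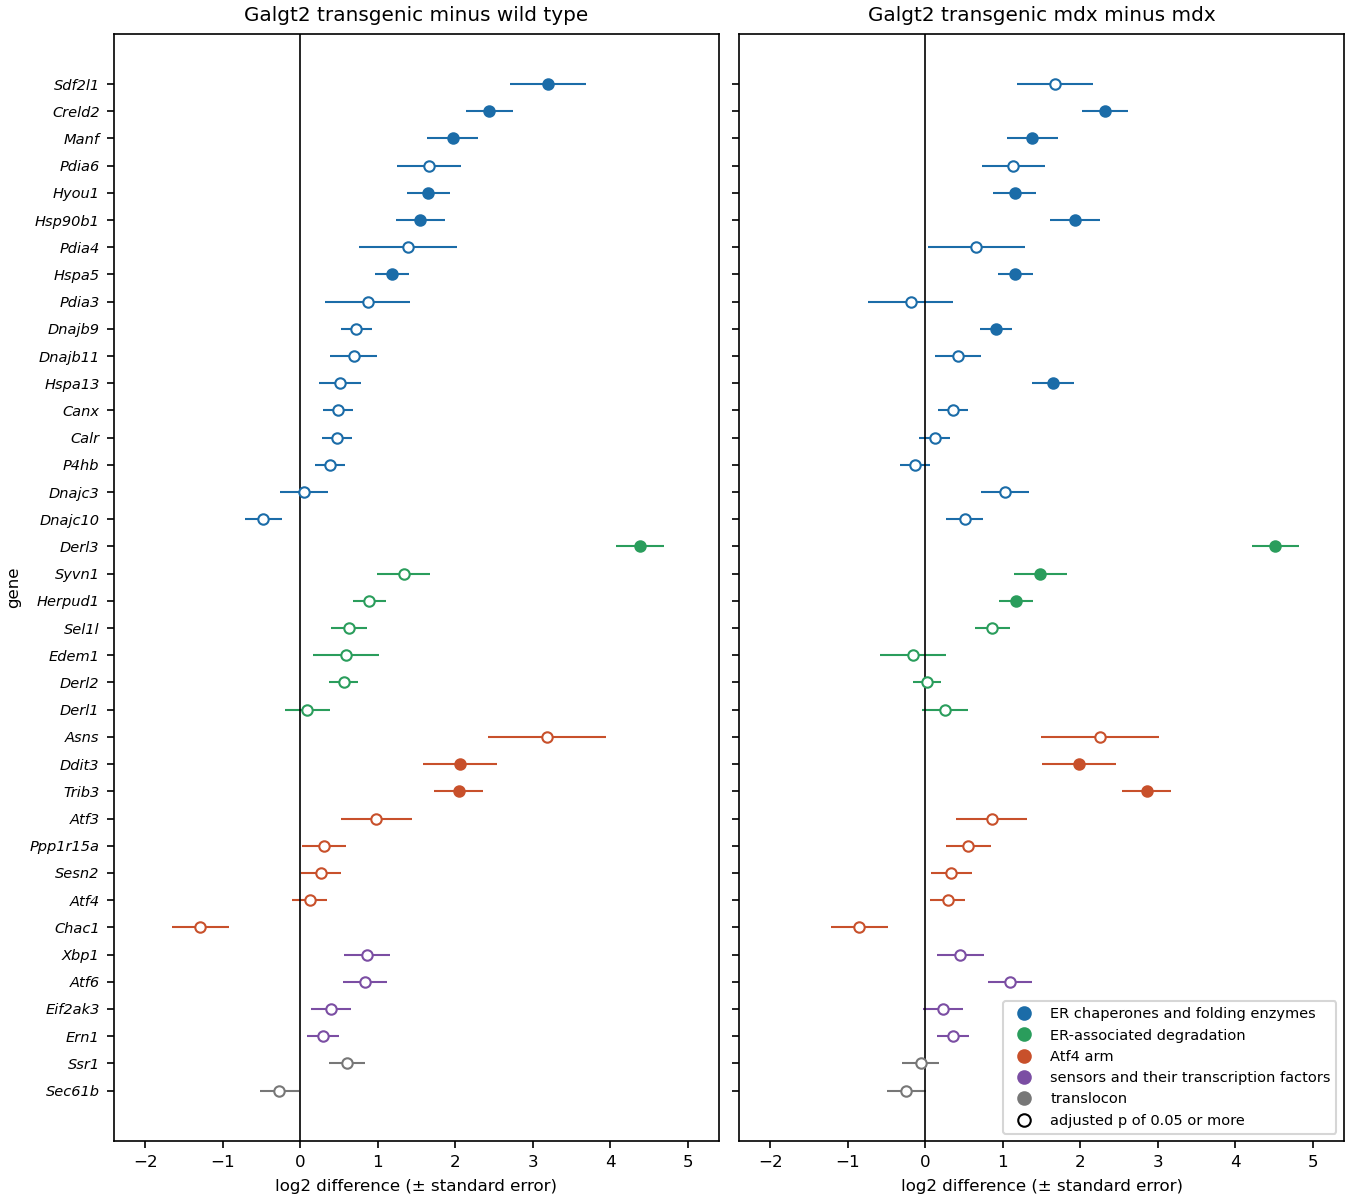
Log2 difference with its standard error for all 38 members, grouped by role, in transgenic against wild type (left) and transgenic mdx against mdx (right), 2 arrays per group. Filled points passed an adjusted p of 0.05 and all lie to the right; of the 17 chaperones Dnajc10 lies to the left in the first panel and P4hb and Pdia3 in the second, and Chac1 lies to the left in both.

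In muscle without dystrophin the transgene came with a like set of rises. In transgenic mdx against mdx muscle 12 of 38 members rose and 0 fell, beside 3.97% of all genes called higher and 2.11% lower. Both transgenic mdx arrays exceeded both mdx arrays for 23 members (21.8% of all genes) and both were lower for 1 (22.3%), Chac1. The median difference was 0.76, against -0.01 for all genes. Derl3 rose by 4.52 ± 0.31 (adjusted p = 6.99e-05), or by 3.81 ± 0.22 with 16 added to each intensity. Trib3 rose by 2.86 ± 0.31 (adjusted p = 0.00105), from a dim level at the 36.0 and 44.1 percentile in mdx. Creld2 rose by 2.32 ± 0.30 (4.99-fold, adjusted p = 0.00257).

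Of the chaperones 7 of 17 rose. They were Creld2, Hsp90b1 (1.93 ± 0.32), Hspa13, Manf (1.38 ± 0.33), Hspa5 (1.16 ± 0.22), Hyou1 (1.15 ± 0.28) and Dnajb9. Hspa13, an Hsp70-like ATPase of microsomes, measured 9.91 and 10.04 on the wild-type arrays, 9.64 and 8.81 on the mdx arrays, 10.59 and 10.39 on the transgenic arrays and 10.80 and 10.93 on the transgenic mdx arrays. Mdx replicate 2 was the lowest array, and the difference between transgenic mdx and mdx was 1.65 ± 0.27 (adjusted p = 0.00812). Dnajb9, a co-chaperone that represses Ern1, measured 10.88 and 10.62 in mdx and 11.69 and 11.64 in transgenic mdx muscle (0.92 ± 0.20, adjusted p = 0.0292). Its wild-type arrays, at 10.68 and 10.81, lay with mdx.

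Of the degradation factors 3 of 7 rose, Derl3, Herpud1 and Syvn1. Herpud1 measured 10.59 and 10.27 in mdx and 11.72 and 11.49 in transgenic mdx muscle (1.17 ± 0.22, adjusted p = 0.0139). Syvn1 measured 9.07 and 8.53 in mdx and 10.51 and 10.07 in transgenic mdx muscle (1.49 ± 0.34, adjusted p = 0.033). Sel1l, the scaffold of Syvn1, fell just short at 0.86 ± 0.23 (adjusted p = 0.0527). In the Atf4 arm Trib3 and Ddit3 (1.98 ± 0.48, adjusted p = 0.0384) rose, Asns was not called at 2.26 ± 0.76 (adjusted p = 0.115), and Atf4 differed by 0.29 ± 0.23. Among the sensors Atf6 was nearest to the threshold (1.09 ± 0.29, adjusted p = 0.0512).

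The count of 12 was 4 without mdx replicate 2 and transgenic mdx replicate 2 together; those 4 were Creld2, Manf, Derl3 and Trib3. It was 5 without mdx replicate 2, 5 without either transgenic mdx array, and 7 without either AAV array, which enter only through the shared estimate of the spread. Creld2, Derl3 and Trib3 passed in every alternative.

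Set side by side, the transgene differences in normal and in mdx muscle had the same sign for 33 of 38 members (58.7% of all genes) and were positive in both for 31 (26.1% of all genes). The comparisons share no array, though they share the estimate of the spread. Pearson's r between them was 0.85 over the 38 members, 0.79 without Derl3 and 0.39 over all genes; genes are not independent replicates. The 8 members called in both were Hspa5, Hsp90b1, Hyou1, Creld2, Manf, Derl3, Ddit3 and Trib3, which are 8 of 9 calls in normal and 8 of 12 calls in mdx muscle; of all genes 1.01% were called higher in both. Sdf2l1 was called in normal muscle only, and Hspa13, Dnajb9, Herpud1 and Syvn1 in mdx muscle only. The test of the difference itself, the interaction of transgene and mdx, called 0 members (0.044% of all genes); 2 members had an unadjusted p under 0.05 (11.9% of genes), Hspa13 (1.13 ± 0.38, adjusted p = 0.265) and Dnajc10 (0.98 ± 0.34, adjusted p = 0.278).

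All 4 transgenic arrays lay above all 4 others for 18 of the 38 members, beside 5.63% of all genes, and below them for 1, Chac1 (5.31% of genes). By role these were 10 of 17 chaperones, 4 of 7 degradation factors (Derl3, Herpud1, Sel1l and Syvn1), 2 of 8 genes of the Atf4 arm (Trib3 and Ddit3), 2 of 4 sensors (Ern1 and Atf6) and 0 of 2 translocon genes.

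**Figure D4:**
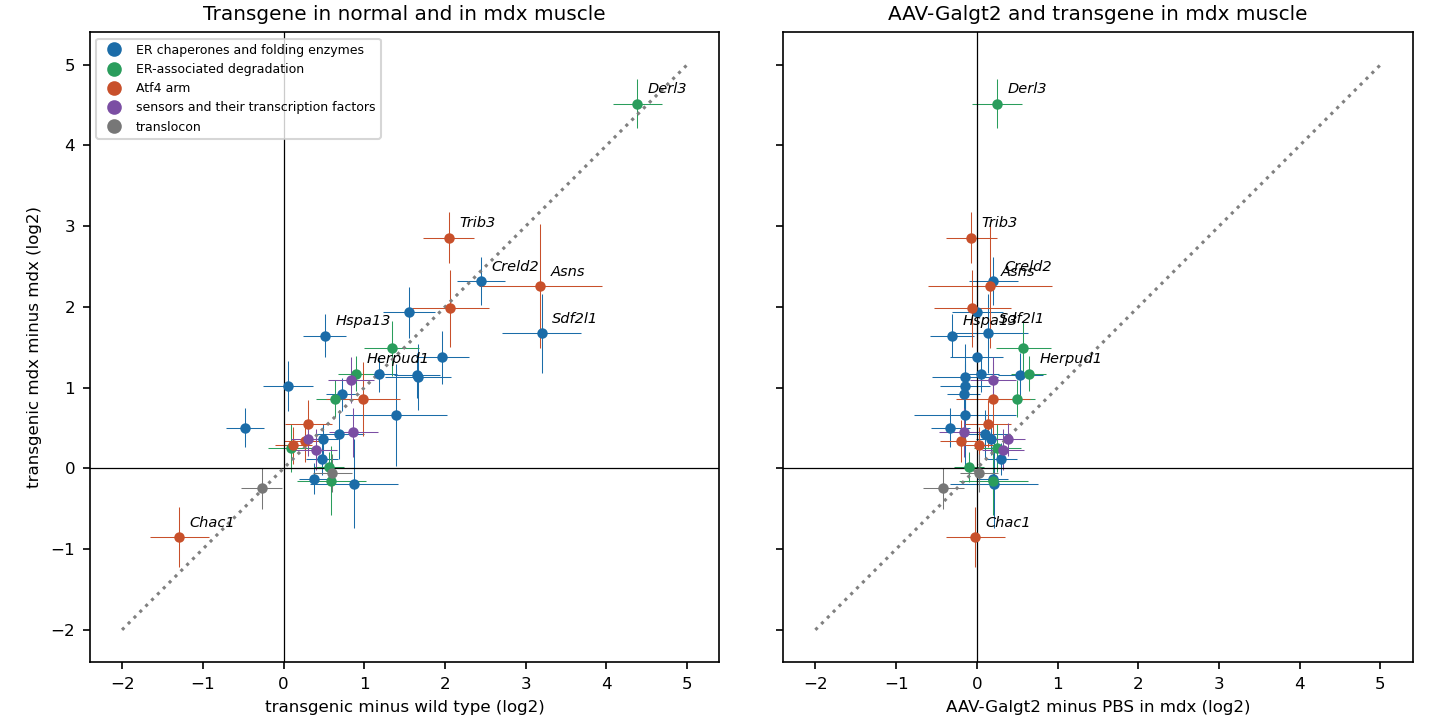
Log2 differences of the 38 members with standard errors: transgenic mdx minus mdx (vertical axes) against transgenic minus wild type (left) and against AAV-Galgt2 minus PBS (right), with the line of equal difference dotted. On the left the points follow the line; on the right the horizontal values stay between -0.42 and 0.64.

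Lack of dystrophin alone showed no called member. In mdx against wild-type muscle limma called 0 of 38 members, beside 5.44% of all genes, with 9 members at an unadjusted p under 0.05 (20.4% of all genes). Both mdx arrays were above both wild-type arrays for 9 members (23.7%) and below for 7 (21.6%), close to the shares of all genes. Sdf2l1 had the lowest p among the chaperones (1.53 ± 0.49, adjusted p = 0.102), and Ssr1, a translocon-associated protein, the lowest of all 38 (0.77 ± 0.24, adjusted p = 0.0874). Xbp1 measured 9.28 and 8.74 in wild type and 9.51 and 10.19 in mdx (0.84 ± 0.30, adjusted p = 0.144). Averaging all probe sets of a gene gave 1 call, Edem1, an ER mannosidase-like degradation factor, and leaving out mdx replicate 1 gave 2 lower calls, Hspa13 and Dnajc3.

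Transgenic mdx against wild type, which joins both changes, showed 15 of 38 members higher and 0 lower, beside 4.91% of all genes called higher and 2.36% lower. In addition to those named above, Pdia6, a disulfide isomerase (1.74 ± 0.41, adjusted p = 0.0293), Asns (4.12 ± 0.76, adjusted p = 0.00972) and Xbp1 (1.29 ± 0.30, adjusted p = 0.0297) passed here. Hspa13 did not (0.89 ± 0.27, adjusted p = 0.0761). The count was 8 without either wild-type array, 9 without either transgenic mdx array, and 11 without the 2 arrays that stood apart. Against transgenic muscle with normal dystrophin, transgenic mdx muscle showed 0 of 38 members called (0.055% of all genes); 1 member, Trib3, had an unadjusted p under 0.05 (3.89% of genes; 1.08 ± 0.31, adjusted p = 1).

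AAV delivery of Galgt2 into mdx muscle came with high B4galnt2 and with no called member. B4galnt2 measured 10.54 and 10.56 in the AAV muscles and 5.27 and 4.26 in the PBS muscles. Of the 38 members 0 were called, as were 0.0% of all genes, although 1506 genes (8.28%) and 1 member, Herpud1, had an unadjusted p under 0.05. Both AAV arrays were above both PBS arrays for 11 members (25.3% of all genes) and below for 4 (18.6%). Those above were the degradation factors Derl1, Derl3, Herpud1, Sel1l and Syvn1, the chaperones Calr, Canx and Hyou1, and Ern1, Eif2ak3 and Ppp1r15a. Those below were the chaperones Hspa13, Dnajc10 and Pdia4, and Sec61b. The differences ran from -0.42 for Sec61b to 0.64 for Herpud1, with a median of 0.12.

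Derl3 measured 3.53 and 3.50 in the AAV muscles and 3.48 and 3.04 in the PBS muscles, dim on all 4 arrays. The difference was 0.25 with a 95% interval of -0.43 to 0.93. For Creld2, at 6.86 and 6.56 against 6.12 and 6.89, it was 0.21 with an interval of -0.45 to 0.87. Hspa5 measured 10.82 and 10.61 against 10.42 and 10.91, a difference of 0.05 with an interval of -0.43 to 0.54. Trib3, at 3.97 and 3.90 against 3.95 and 4.05, showed -0.07 with an interval of -0.77 to 0.63. Like Derl3, Trib3 was dim on all 4 arrays, between the 30.7 and 33.3 percentile of genes. For each of these 4 genes the upper bound lies below the difference measured with the transgene in mdx muscle. That reading leaves out the error of the transgene difference. In the direct test below Derl3, Creld2 and Trib3 passed and Hspa5 did not. Herpud1, at 9.56 and 9.07 against 8.69 and 8.66, had the only interval of the 38 members above 0, 0.16 to 1.13 (adjusted p = 0.465).

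The difference between the 2 routes was tested directly, each difference taken within its own array set. Array set and substrain cannot be told apart from the route, since transgenic mdx was C57BL/10J x C57BL/6J and the AAV and PBS muscles were both C57BL/10J. The transgene difference in mdx muscle exceeded the AAV difference for 29 of 38 members (47.9% of all genes), and 4 members passed, beside 1.19% of all genes called higher. These were Derl3 (4.27 ± 0.43, adjusted p = 0.00263), Trib3 (2.93 ± 0.44, adjusted p = 0.0135), Creld2 (2.11 ± 0.42, adjusted p = 0.0371) and Hspa13 (1.95 ± 0.38, adjusted p = 0.0347). Of these, Derl3 and Trib3 were dim on the AAV and PBS arrays. Derl3 passed under all alternatives that could be run. The count was 2 without either wild-type array, without mdx replicate 2, transgenic mdx replicate 1 or PBS replicate 1, and without mdx replicate 2 and transgenic mdx replicate 2 together; it was 1 without either AAV array, and it reached 6 without mdx replicate 1. Age at injection and dose are not in the labels, and the B4galnt2 difference was 5.78 ± 0.91 with AAV and 7.49 ± 0.91 with the transgene in mdx muscle.

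Many members have more than 1 probe set. Of the 90 probe sets 76 were higher in transgenic than in wild-type muscle on average, beside 44.4% of the 34958 probe sets with 1 gene. Both arrays were above for 67 (19.2% of all probe sets). In transgenic mdx against mdx 73 were higher (47.6%), 50 with both above (20.8%). In AAV against PBS 51 were higher (51.6%), 24 with both above (22.5%), near the share of all probe sets. For Hspa5 the 3 probe sets gave 1.19, 1.31 and 0.64 in transgenic against wild type. The chosen probe set of Dnajc3, an inhibitor of the eIF2 kinases, gave 0.05 while its other 4 gave 0.28 to 1.39. For Derl1 the chosen one gave 0.10 and a dimmer one 1.43, and for Ssr1 the 4 probe sets ran from -0.84 to 1.18 in transgenic mdx against mdx. Values for Dnajc3, Derl1 and Ssr1 therefore depend on the probe set, and those of other members can too. In transgenic mdx against mdx a dimmer probe set of Ddit3 (0.92) and of Hyou1 (0.68) overlapped between groups. Another dimmer probe set of Hyou1 (0.81) did not. For Asns the dimmer probe set measured 9.82 to 10.83 on the 4 transgenic arrays and at most 9.26 on the wild-type and mdx arrays.

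Other genes of the pathway were read from lists that hold no member. Of 33 other measured Atf4 targets 3 rose in transgenic against wild type and 0 fell. They were Psat1 (3.23 ± 0.40), an enzyme of serine synthesis, Slc7a3 (2.17 ± 0.28), a transporter of cationic amino acids, and Mthfd2 (2.09 ± 0.22), an enzyme of mitochondrial folate use. In transgenic mdx against mdx 3 of 33 rose, Slc7a3 (3.11 ± 0.28), Mthfd2 (1.44 ± 0.22) and Eprs (1.34 ± 0.20), a tRNA synthetase. The median of the list was 0.31 and 0.45, beside -0.05 and -0.01 for all genes. Psat1 also rose in mdx against wild type (2.04 ± 0.40, adjusted p = 0.0192), where Eprs fell by 0.94 ± 0.20 (adjusted p = 0.0244).

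Of 27 further genes of ER folding and degradation 1 rose in transgenic against wild type, Fkbp11 (2.66 ± 0.34), a prolyl isomerase of secretory cells. In transgenic mdx against mdx 4 rose, Fkbp11 (2.26 ± 0.34), the mannosidase Edem3 (1.14 ± 0.21), the oxidase Ero1b (1.07 ± 0.27) and Selenos (0.82 ± 0.20), a selenoprotein of the degradation complex. Edem3 had fallen by 0.97 ± 0.21 in mdx against wild type (adjusted p = 0.0285). Of 21 genes of translocation and N-glycosylation 0 and 1 (Sec63, 1.00 ± 0.23) rose, while Sec61a1, a channel subunit of the translocon, rose in mdx against wild type (1.32 ± 0.29, adjusted p = 0.0295). Of 15 other sensors and regulators 0 and 0 rose in the transgene comparisons. Of 12 cytosolic heat shock genes 0 rose in normal and 2 in mdx muscle, the inducible Hsp70 genes Hspa1a (2.42 ± 0.61) and Hspa1b (1.45 ± 0.37), which are near-identical copies that probes can confuse. With 2.12% and 3.97% of all genes called higher in these transgene comparisons, a single call in lists of this size is near that share. AAV against PBS had 0 calls in each of these lists and 0 over all genes.

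Plasma cells express many ER genes, and their markers were read beside these results. Beside 1.01% of all genes, 1 of 10 plasma and B cell markers rose in both transgene comparisons. It was Mzb1, an ER co-chaperone of antibody-secreting cells, which measured 4.34 and 4.69 on the wild-type arrays, 5.35 and 5.11 on the mdx arrays, 7.60 and 8.63 on the transgenic arrays and 7.31 and 7.64 on the transgenic mdx arrays (3.60 ± 0.33 and 2.25 ± 0.33, adjusted p = 0.000449 and 0.00553). The plasma cell receptor Tnfrsf17 measured 5.12 and 5.17 on the wild-type arrays, 5.51 and 6.04 on the mdx arrays, 4.76 and 5.03 on the transgenic arrays and 4.92 and 5.63 on the transgenic mdx arrays, differences of -0.25 ± 0.30 and -0.50 ± 0.30. Jchain, which joins antibodies, ran from 5.92 to 6.21 in wild type and 7.32 to 8.80 in mdx. It ran from 6.15 to 8.95 in transgenic and 8.27 to 9.55 in transgenic mdx muscle, so that the transgenic arrays overlapped every other group. In transgenic against wild type Jchain (1.48 ± 0.92), Pou2af1 (1.46 ± 1.24), Sdc1 (0.79), Cd79b (0.53) and Cd79a (0.37) were higher without a call. Prdm1 (-0.48), Irf4 (-0.90), Ms4a1 (-0.17) and Tnfrsf17 were lower without a call. In transgenic mdx against mdx Jchain differed by 0.85 ± 0.92 and Pou2af1 by -0.33 ± 1.24. The summed intensity of the list was 1326 to 1484 in wild type, 3237 to 3977 in mdx, 2086 to 2732 in transgenic and 2482 to 3214 in transgenic mdx muscle. Much of this sum was Sdc1, at 9.58 to 9.69 in wild type, 11.03 to 11.20 in mdx and 10.39 to 10.57 in both transgenic groups; Sdc1 was also bright on the 4 arrays of C2C12, a line of muscle cells (12.57 to 12.97).

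Markers of other cells also differed between these groups. Of all genes 2.12% were called higher and 1.03% lower in transgenic against wild type. In transgenic mdx against mdx these shares were 3.97% and 2.11%. Regenerating fibre markers rose in 6 of 8 cases in transgenic against wild type, with 1 lower, and in 0 of 8 in transgenic mdx against mdx, with 1 lower. Macrophage markers rose in 2 of 10 in the former and fell in 3 of 10 in the latter. Of 8 skin and epithelial markers 2 and 3 rose; Dsp, desmoplakin, measured 4.20 and 4.26 in wild type and 7.58 and 6.73 in transgenic muscle, while Krt5 and Krt14, keratins that define basal skin cells, stayed between 4.15 and 5.98 on the 8 arrays. The summed skin list was 1353 to 1471 in wild type, 686 to 752 in mdx, 3523 to 4207 in transgenic and 2954 to 5284 in transgenic mdx muscle. The summed intensity of the endothelial markers split by the transgene and was lower with it. Of the single markers, Cdh5, Kdr and Esam were lower on all 4 transgenic arrays than on the 4 others. Pecam1, Tek, Emcn, Cldn5 and Tie1 overlapped. Tek was the brightest of them in wild type, at 11.45 and 11.22. All 8 endothelial markers were lower on average in both transgene comparisons. Of these, 0 were called in transgenic against wild type and 3 were called lower in transgenic mdx against mdx. Their summed intensity was 4636 to 5206 in wild type, 4501 to 4815 in mdx, 2921 to 2948 in transgenic and 2328 to 2599 in transgenic mdx muscle, so that all 4 transgenic arrays lay below the 4 others. The summed intensity of the muscle fibre markers was also lower on all 4 transgenic arrays than on the 4 others. It was 96545 to 100524 in wild type, 95145 to 97957 in mdx, 83966 to 90622 in transgenic and 80850 to 85074 in transgenic mdx muscle. Fibroblast markers had 0 of 8 called in both comparisons. The part of these cell types in the results was not tested.

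The cell lines have 1 array each, so values are given with no test, and a fold of 2 serves as the mark. The C2C12 pair without Galgt2 went against its labels: of 8 myotube markers 0 were higher on the array labelled myotubes, with a median difference of -0.92, and all 7 measured proliferation markers were higher there. Dmd, which myotubes express, measured 9.13 on the array labelled myoblasts and 5.20 on that labelled myotubes. In the C2C12-Galgt2 pair 8 of 8 myotube markers were higher in myotubes and 0 of 7 proliferation markers. B4galnt2 measured 4.58 and 4.81 in C2C12 and 9.76 and 10.82 in C2C12-Galgt2 cells.

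Derl3 stayed at 3.75 to 4.03 on all 4 cell arrays, those with Galgt2 included. In the C2C12-Galgt2 line 0 of 17 chaperones were higher in myotubes than in myoblasts, beside 7196 of 18194 genes. Of all 38 members 4 were at least 2-fold lower (2.16% of all genes) and 0 higher (3.31%). Hyou1 went from 10.73 in myoblasts to 9.64 in myotubes, Creld2 from 10.54 to 9.26, Sdf2l1 from 8.22 to 6.82 and Pdia4, a disulfide isomerase, from 8.16 to 6.70. None of the 8 genes of the Atf4 arm was 2-fold apart; Asns measured 12.33 and 12.27, and Trib3 8.49 and 8.60. All-gene and member medians were -0.09 and -0.24.

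In the pair without Galgt2, the array labelled myotubes was at least 2-fold above that labelled myoblasts for 4 members (3.96% of all genes) and below for 0 (4.28%). Atf3 went from 5.76 on the array labelled myoblasts to 8.18, Trib3 from 6.08 to 7.99, Pdia4 from 6.26 to 7.47 and Asns from 11.14 to 12.16, so that 3 of the 4 belong to the Atf4 arm.

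Between lines, C2C12-Galgt2 myoblasts stood above the array labelled C2C12 myoblasts for 36 of 38 members, beside 11180 of 18193 genes. They were at least 2-fold below for 0 members (3.48% of all genes) and at least 2-fold above for 8 (2.63%). These were Trib3 (2.41), Pdia4 (1.90), Creld2 (1.59), Atf3 (1.53), Sdf2l1 (1.53), Chac1 (1.30), Asns (1.19) and Hyou1 (1.08), as log2 differences. C2C12-Galgt2 myotubes against the array labelled C2C12 myotubes gave 1 member 2-fold higher, Ppp1r15a (1.24; 4.52% of all genes), and 1 lower, Edem1 (-1.01; 4.66%). With the labels of the parental pair in doubt, C2C12-Galgt2 myotubes were also set against the array labelled C2C12 myoblasts. There 4 members were 2-fold higher (1.18%) and 0 lower (1.95%), all 4 of the Atf4 arm: Trib3 (2.52), Atf3 (2.18), Asns (1.13) and Chac1 (1.13). C2C12-Galgt2 myoblasts against the array labelled C2C12 myotubes gave 0 lower (3.85%) and 4 higher (2.18%), Sdf2l1 (1.24), Herpud1 (1.15), Ppp1r15a (1.11) and Creld2 (1.09). The members that differ between the lines thus change with which parental array is taken. Chac1 was lower on the transgenic muscle arrays, without a call. It was higher on the C2C12-Galgt2 arrays, at 9.13 and 8.96 against 7.83 and 8.43.

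**Figure D5:**
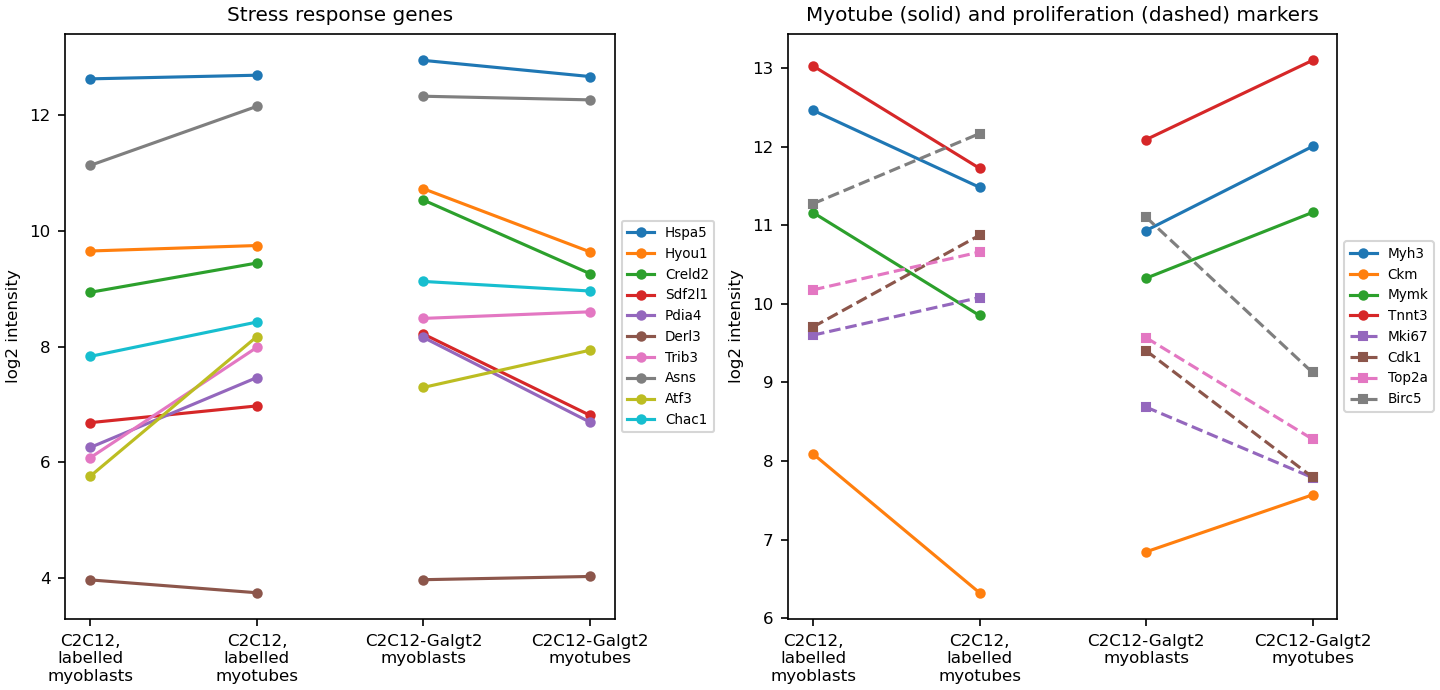
Log2 intensity on the 4 cell arrays (1 per condition, lines join arrays of a line) for 10 members (left) and 8 markers (right). Myotube markers (solid) drop and proliferation markers (dashed) climb from the array labelled C2C12 myoblasts to that labelled C2C12 myotubes, the reverse of the C2C12-Galgt2 pair, and Derl3 stays near 4 throughout.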

How the data were processed

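Muscle and cell RNA was measured on 16 arrays of 45101 probe sets. The deposited values are linear intensity; the submitters' processing notes name GCOS and RMA, without versions, and the authors' scaling between array sets is not given in the sources used here. Of the probe sets, 34958 carry 1 gene symbol, 932 several and 9211 none; only the first were used. The members and lists were chosen with earlier results of these data known. Intensities were taken to log2, and the brightest probe set over the 12 muscle arrays stood for each of 18194 genes. A model of 6 group means was fitted with limma 3.58.1 in R 4.3.3 (lmFit, eBayes), with p-values adjusted over all genes by Benjamini-Hochberg and a threshold of 0.05. With 2 arrays per group the number of arrays limits precision, and nothing in the labels says that replicates are separate animals, so the p-values rest on a spread that may be technical. On simulated data over 18194 genes, a log2 change of 1 was recovered for 21% of changed genes in transgenic against wild type and 22% in AAV against PBS, and a change of 2 for 80% and 86%. Replicate numbers were not taken to pair the samples. Correlations of same-numbered deviations between groups ran from -0.44 for wild type and mdx to 0.54 for wild type and transgenic. What a shared number stands for is not in the labels and was not tested.

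Members called with groups that do not overlap are given in full, others by ranges, counts or short values. Of the other pathway lists at most 4 called genes are named per comparison. Counts, sums and the names of all genes are given for the plasma cell, skin and endothelial lists. The regenerating fibre, macrophage, fibroblast, myotube and proliferation lists have counts without sums, and the muscle fibre list has its sum only. Names of genes that lost or gained a call, of probe sets that disagree and of members with the lowest p were chosen after their values were seen. The same holds for Mzb1, Dsp, Perp and Trp63. Tried as alternatives were shifting arrays to the same median, quantile normalization, all probe sets, the brightest probe set of each array set, a filter on dim genes, an added 16, a fit within the array set, a replicate block, trended robust eBayes and leaving out each array. Leaving out 2 arrays together was added after seeing the data. Promoters are those of RefSeq (GRCm38.p6), read on both strands.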

Additional observations from a re-analysis of the deposited data

Results flagged for a closer look

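For 4 members the transgene difference in mdx muscle and the AAV difference in mdx muscle differed by a test of the difference itself in limma, with 2 arrays per group. Derl3 was apart by 4.27 ± 0.43 (adjusted p = 0.00263), with 4.52 for the transgene and 0.25 for AAV. Trib3 was apart by 2.93 ± 0.44 (adjusted p = 0.0135), with 2.86 and -0.07. Creld2 was apart by 2.11 ± 0.42 (adjusted p = 0.0371), with 2.32 and 0.21. Hspa13 was apart by 1.95 ± 0.38 (adjusted p = 0.0347), with 1.65 and -0.31. Derl3 and Trib3 were dim on the AAV and PBS arrays. The 2 routes were measured in different array sets, and the transgenic mdx mice were of another substrain background than the other mdx mice, so route, array set and substrain cannot be told apart.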

How the results depend on the processing

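No called member changed direction under the alternatives run for its comparison. The count of called members in mdx against wild type was 1 with the mean of all probe sets, and from 0 to 2 when each array was left out in turn. Leaving out arrays gave 3 to 10 calls in transgenic against wild type, 5 to 15 in transgenic mdx against mdx, 8 to 16 in transgenic mdx against wild type and 1 to 6 in the transgene against the AAV difference. With the replicate block, which groups samples by replicate number, the calls were 8, 7, 11 and 2 in those 4 comparisons. The labels do not say whether that number pairs samples. Without mdx replicate 2 and transgenic mdx replicate 2 together, an alternative chosen after seeing the data, the calls were 4 in transgenic mdx against mdx and 2 in the transgene against the AAV difference. Why counts fell in these settings was not tested beyond the smaller number of arrays. Shifting arrays to the same median moved the split of all genes called in mdx against wild type from 682 higher and 308 lower to 585 and 462. It put the median of all genes in the interaction at 0.14. The brightest probe set of each array set and the fit within the array set were not run for the transgene against the AAV difference, which spans both sets. For the cell lines, counts of members at least 2-fold apart can change when arrays are shifted to the same median. Ddit3 lay just under that mark, at 8.82 in C2C12-Galgt2 myoblasts and 7.84 on the array labelled C2C12 myoblasts. The medians of these arrays were 57.2 and 60.1 intensity units.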
